A study of Mus musculus with 2 samples.

Results

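Of the 32285 genes counted in 2 single-cell libraries of the mouse dentate gyrus, 8 encode transcription factors of the SOX and nuclear factor I (NFI) families that act in glia and in young neurons, and they are described here across cell classes. The members were taken by gene symbol, 5 Sox genes (Sox2, Sox9, Sox8, Sox4 and Sox11) and 3 NFI genes (Nfia, Nfib and Nfix), and all 8 symbols were found once in each library. The libraries came from dentate gyri of wild type mice (control) and of mice labelled Setdb1_cKO, a conditional knockout of Setdb1, both at postnatal day 5, with no treatment other than age in the labels. Setdb1 encodes a histone methyltransferase that represses transcription. What drove the deletion, which part of the gene was deleted and how many mice each library pooled: none of this is given by the sources at hand. With 1 library per genotype there is no replicate check and no p-value, and every interval is a 95% interval for counting error alone.

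SOX proteins bind DNA through an HMG box. Sox2 keeps neural stem cells in their state, Sox9 and its close relative Sox8 act in neural stem cells, astrocytes and oligodendrocyte progenitors, and Sox4 and Sox11 switch on genes of newly born neurons. NFI proteins bind DNA as dimers, and Nfia is known to act with Sox9 in the onset of glial gene expression. In the dentate gyrus radial glia give rise, through intermediate progenitors and neuroblasts, to granule neurons, and also to astrocytes.

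After filtering, 10798 control and 9378 Setdb1_cKO cells were kept, with medians of 5928 and 6982 unique molecular identifiers (UMIs) per cell. Setdb1 itself was at 42.7 and 20.3 CPM (UMIs scaled to the total of the cells summed) over all kept cells, control first as throughout, a ratio of 0.475 (0.447 to 0.505), and its ratio lay between 0.296 and 0.531 in the 5 main classes. Where the deleted part lies relative to the counted reads is not known, so this level does not measure the share of cells that lost the gene. The libraries also differed in sex-linked RNA, with 16 and 94368 UMIs of Xist and 4185 and 0 UMIs of Ddx3y, so genotype and the sex of the mice cannot be told apart. None of the 8 members lies on a sex chromosome. Cells were grouped into clusters without using any Sox or NFI gene and named from marker genes, so a class name stands for cells like that type. The main classes held 1409 control and 1236 Setdb1_cKO radial glia, 1181 and 712 intermediate progenitors, 3231 and 3023 neuroblasts, 253 and 655 granule neurons and 1465 and 713 astrocytes. Of the markers of each class, all 9 for neuroblasts reached 20 CPM in both libraries, but 4 of 10 did so for granule neurons, a class in which all 9 neuroblast markers also reached 20 CPM. Some classes were made of different clusters in the 2 libraries. Neuroblasts consisted of cluster 0 (1203 and 1066 cells, led by Calb2), cluster 1 (240 and 1869, led by Gal) and cluster 2 (1788 and 88, led by Cpne9), and radial glia mostly of cluster 4 (1140 and 258) and cluster 8 (42 and 828). A further cluster, cluster 3 (927 and 714 cells, led by Tac2, Mfap4, Nhlh1 and Eomes), had markers of both intermediate progenitors and neuroblasts and stayed without a name.

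The genes lie on 7 chromosomes (mm10, positions from GENCODE vM21). Sox2 is on chromosome 3 (34650405 to 34652461, forward strand), Sox9 on chromosome 11 (112782224 to 112787760, forward) and Sox8 on chromosome 17 (25565892 to 25570686, reverse). Sox4 is on chromosome 13 (28948919 to 28953713, reverse) and Sox11 on chromosome 12 (27334264 to 27342574, reverse). Nfia (97772734 to 98118874, forward) and Nfib (82290173 to 82705750, reverse) share chromosome 4, and Nfix is on chromosome 8 (84699876 to 84800344, reverse). Sox2 lies inside the noncoding gene Sox2ot on the same strand, and Sox8, Sox4, Nfia, Nfib and Nfix overlap genes annotated on the other strand. The sources do not say how reads in such overlaps were assigned.

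Promoters were found in RefSeq's table (GRCm38.p6) for 6 of the 8 genes, Sox2, Sox8, Sox4, Sox11, Nfia and Nfix. The 250 bases before the start are shown for Sox4 (chr13:28953700-28953949) and Sox11 (chr12:27342719-27342968), both on the reverse strand and printed 5′ to 3′, because these genes had lower levels together in the Setdb1_cKO library. Capitals mark TTGGC or its reverse complement GCCAA, the core of the NFI binding motif.
Sox4: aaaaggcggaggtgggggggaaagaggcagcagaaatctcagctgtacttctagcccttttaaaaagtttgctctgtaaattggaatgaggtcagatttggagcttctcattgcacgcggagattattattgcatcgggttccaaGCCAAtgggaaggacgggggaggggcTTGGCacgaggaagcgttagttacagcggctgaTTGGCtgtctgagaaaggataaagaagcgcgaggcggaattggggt
Sox11: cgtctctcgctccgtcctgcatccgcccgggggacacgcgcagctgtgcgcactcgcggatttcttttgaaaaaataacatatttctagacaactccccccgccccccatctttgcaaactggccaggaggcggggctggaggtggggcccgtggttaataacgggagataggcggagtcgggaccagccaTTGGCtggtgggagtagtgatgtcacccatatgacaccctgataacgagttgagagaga
The Sox4 window held 3 such matches and the Sox11 window 1, and 41.5% of the 32851 promoters in the table held at least 1. Of these matches 2 in Sox4 and 1 in Sox11 overlapped a CCAAT box (CCAAT or ATTGG), which was present in 33.9% of all windows. The core letters of SOX binding sites, ACAAT or ATTGT, had 0 matches in either window and occurred in 27.7% of all windows. The E-box letters CANNTG, bound by proneural factors, had 1 match in Sox4 and 2 in Sox11 and occurred in 66.2%. These are matches of letters and no binding was measured.

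Along the lineage the members fell into 3 patterns. In the control library Sox2 and Sox9 were high in glia and low in neurons, Sox4, Sox11 and the NFI genes were highest between intermediate progenitors and neuroblasts, and Sox8 was highest in oligodendrocyte progenitors. Sox9 was at 743 CPM in ependymal cells and 703 CPM in radial glia, whose intervals overlapped, followed by 564 CPM in astrocytes, 361 in oligodendrocyte progenitors and 222 in intermediate progenitors, each apart from the next. Below these, endothelial cells were at 71.1 CPM, and from GABAergic neurons (23.9) through fibroblasts (16.5), neuroblasts (15.4), pyramidal or mossy neurons (14.7), Cajal-Retzius cells (13.2) and granule neurons (10.4) down to microglia (3.15) the interval of each class overlapped that of the next. Sox2 was at 713 CPM in radial glia, above astrocytes (641) and ependymal cells (564), whose intervals overlapped, and at 463 CPM in intermediate progenitors, which overlapped ependymal cells. Sox2 had 14.3 CPM in neuroblasts and 8.09 in granule neurons, with 11.5 CPM in microglia, which should lack it. Sox8 was at 120.5 CPM in oligodendrocyte progenitors, 68.1 in astrocytes, 57.7 in radial glia and 28.6 in intermediate progenitors, the astrocyte and radial glia intervals overlapping, and had 0 UMIs in microglia and Cajal-Retzius cells.

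The neuronal pair and the NFI genes had their highest named class in common. Sox4 was at 2629 CPM in neuroblasts, 2128 in intermediate progenitors and 918 in granule neurons of the control library, against 536 in radial glia and 391 in astrocytes. Sox11 was at 5026 CPM in neuroblasts, 4139 in granule neurons, 2056 in intermediate progenitors and 340 in radial glia. Nfia was at 1416 CPM in neuroblasts and 1347 in granule neurons, intervals that overlapped, and at 804 in radial glia. Nfib was at 4403 CPM in neuroblasts against 1354 in radial glia and 902 in astrocytes, and Nfix at 3471 against 1058 and 727. Cluster 3 lay above neuroblasts for Sox4 (3542 CPM), Sox11 (5408), Nfia (1842), Nfib (5474) and Nfix (5032). The levels of the NFI genes were therefore higher in the neuronal branch than in glia. Microglia gave 276 CPM of Sox4, 157 of Sox11 and 93.3 to 111 of the NFI genes, and low levels in other classes are read beside these values. They are not the lowest levels, as border macrophages gave 105 CPM of Sox4 and Cajal-Retzius cells 111 CPM of Sox11.

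**Figure D1:**
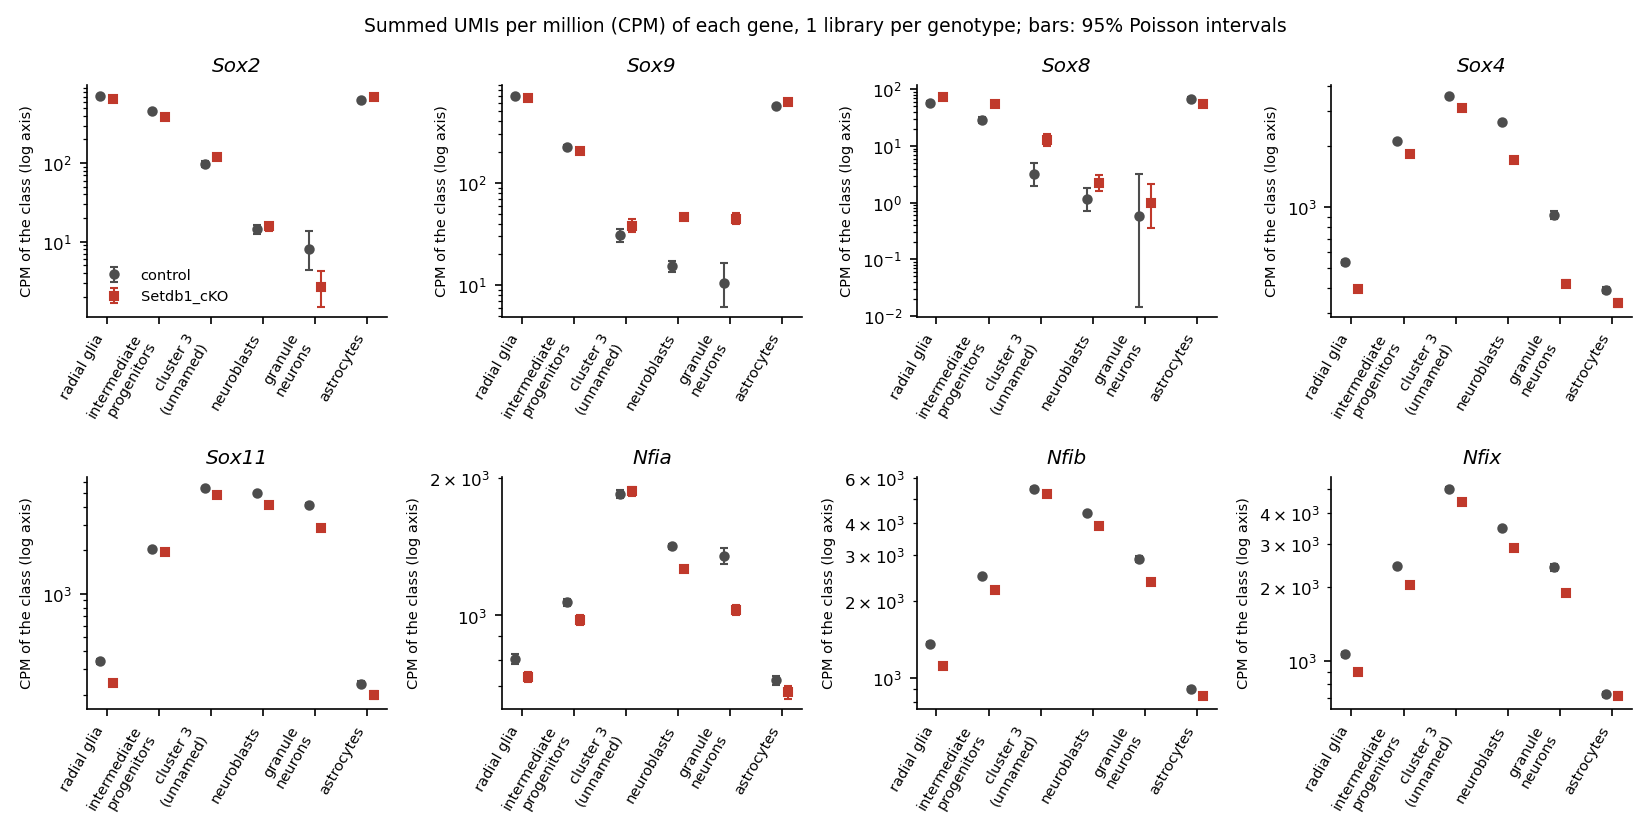
Levels of the 8 genes in CPM (log axis) in 5 named classes and in cluster 3, control as grey circles and Setdb1_cKO as red squares, with 95% Poisson intervals for counting error and 1 library per genotype. Sox9 is lower in control neuroblasts (15.4 CPM) than in Setdb1_cKO neuroblasts (46.7 CPM), while in radial glia the levels are 703 and 679 CPM.

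Across 17 classes of the control library the NFI genes, Sox2 with Sox9 and Sox4 with Sox11 were the closest members. These classes include the erythroid and other blood clusters, which carried neuronal RNA. The Pearson correlation of log2(CPM + 1) was 0.98 between Nfib and Nfix, 0.93 between Nfia and each of them, 0.88 between Sox2 and Sox9 and 0.83 between Sox4 and Sox11, but -0.06 between Sox9 and Sox11. Sox8 did not stand apart, at 0.70 with Sox9 and 0.66 with Sox2. These values reuse the levels given above, and the classes share 1 library and free RNA, so they are descriptions and no separate support. Among 12133 other genes outside the marker lists, those closest to Sox9 were Cmtm5 (0.95), the glial adhesion gene Hepacam (0.94) and Sox3 (0.94), and those closest to Sox2 were 2810459M11Rik (0.96), Ptprz1 (0.94) and Mgll (0.94). Sox8 was closest to Inhbb (0.92), Xylt1 (0.86) and Gm29521 (0.85). Closest to Sox4 were Srsf11 (0.91), Mex3a (0.90) and Scrt2 (0.89), and to Sox11 the guidance genes Epha4 (0.94) and Sema3c (0.93) and the RNA-binding gene Mex3b (0.92). Nfib and Nfix shared Zbtb20, Tagln3 and Zfp553 as their 3 closest genes (0.93 to 0.95), and Nfia was closest to Kat6b, Msi1 and Ppdpf (0.93 to 0.94).

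The genotype libraries were then compared within each class, and a gene was taken as measured when both libraries together gave 30 UMIs or more. Of the 40 pairs of member and main class 39 were measured, and 4 were at least 1.5-fold higher and 3 at least 1.5-fold lower in the Setdb1_cKO library. In neuroblasts 2 of 8 members were higher and 1 lower, where 7.09% of all 13153 measured genes were higher and 6.26% lower. In granule neurons 1 of 7 was higher and 2 lower, against 7.27% and 6.91% of all genes. In intermediate progenitors 1 of 8 was higher and 0 lower, against 4.62% and 7.13%. Radial glia and astrocytes had 0 of 8 members past 1.5-fold in either direction, with 6.34% and 6.79% of all genes in radial glia and 5.97% and 5.54% in astrocytes. The shares were also taken over genes of higher level, with at least 20 CPM in one of the libraries. Of these, 2.54% were higher and 2.47% lower in neuroblasts, 3.99% and 3.95% in granule neurons, 2.13% and 3% in intermediate progenitors, 3% and 3.27% in radial glia and 2.42% and 2.59% in astrocytes. Sox8 and Sox2 in neuroblasts and granule neurons were below that level, and every other pair of member and main class was above it.

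**Figure D2:**
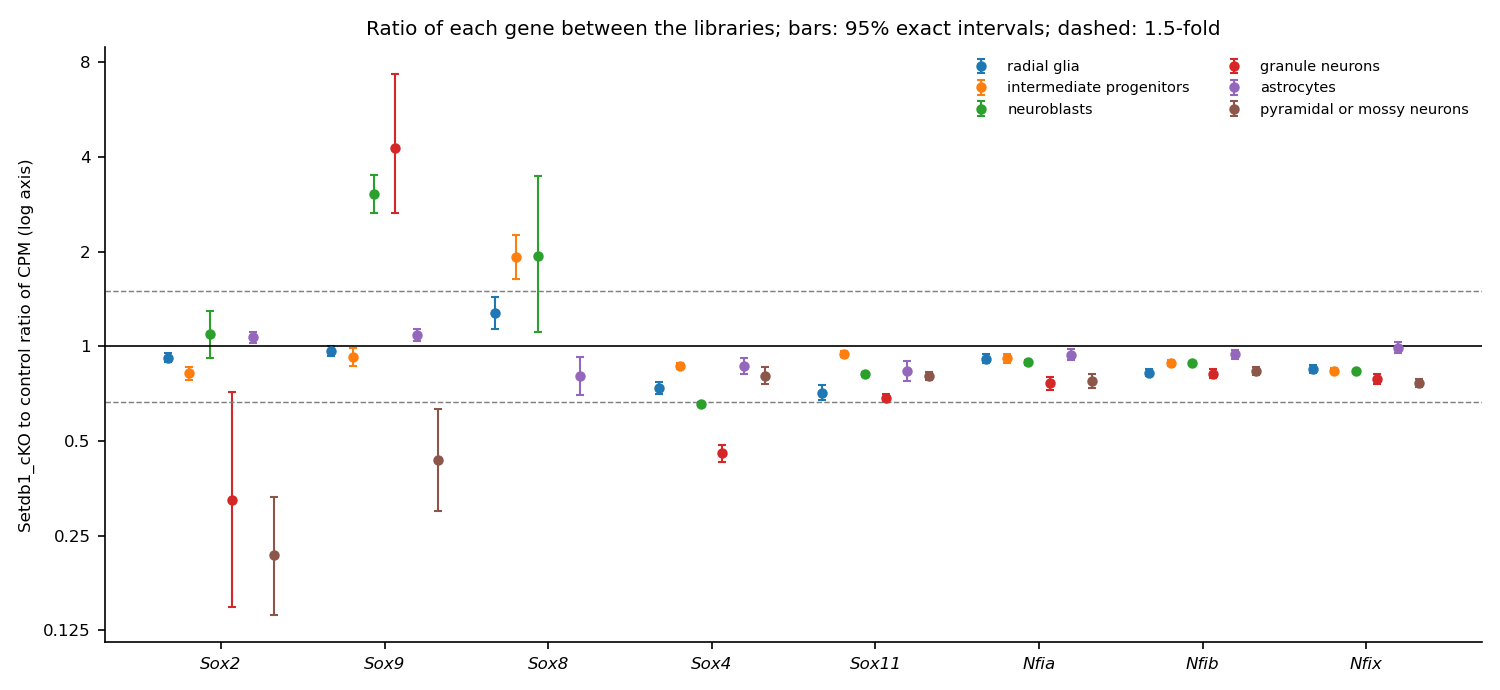
Setdb1_cKO to control ratio of CPM (log axis) for each measured gene in 6 classes, with 95% exact intervals for counting error and dashed lines at 1.5-fold. Sox9 stands at 3.04 in neuroblasts and 4.29 in granule neurons and at 0.434 in pyramidal or mossy neurons, and the NFI genes stay between 0.763 and 0.990 in all 6.

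Sox9 was higher in neuroblasts and granule neurons of the Setdb1_cKO library, while its level in radial glia was nearly the same in both. Neuroblasts had 266 Sox9 UMIs in control and 876 in Setdb1_cKO, or 15.4 and 46.7 CPM, a ratio of 3.04 (2.65 to 3.50). Granule neurons had 18 and 272 UMIs, or 10.4 and 44.6 CPM, a ratio of 4.29 (2.66 to 7.35). The control levels lay in the range of neurons that should lack the gene and the Setdb1_cKO levels above it. In radial glia Sox9 was at 703 and 679 CPM (0.966, 0.932 to 1.0), in astrocytes at 564 and 613 CPM (1.09, 1.04 to 1.14) and in intermediate progenitors at 222 and 206 CPM (0.925, 0.864 to 0.991).

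The difference was not of the same size along the neuronal branch. Cluster 3 had 30.8 and 38.1 CPM of Sox9, a ratio of 1.24 (1.0 to 1.53), and cluster 0, the neuroblast cluster with similar cell numbers in both libraries, had 17.2 and 25.6 CPM, 1.49 (1.15 to 1.92). Cluster 1 had 18.8 and 56.6 CPM, 3.02 (1.98 to 4.85), and cluster 2 had 13.8 and 55.0 CPM, 3.99 (2.66 to 5.85), on 22 control and 34 Setdb1_cKO UMIs in the smaller library of each. The intervals of clusters 1 and 2 did not overlap that of cluster 0. In control Sox9 was lower in each of these clusters than in cluster 3, whereas in Setdb1_cKO the values of clusters 1 and 2 were the higher ones. In control the interval of cluster 1 (11.8 to 28.4) overlapped that of cluster 3 (26.4 to 35.6). In Setdb1_cKO that of cluster 2 (38.1 to 76.9) did so (cluster 3, 32.8 to 44.1). Cells of higher depth also showed the larger ratio in neuroblasts, 2.10, 2.30, 3.14 and 3.79 from the lowest to the highest of 4 bins of UMIs per cell. In granule neurons the order ran the other way, 12.3, 7.80, 2.30 and 2.20, on 3 to 6 control UMIs per bin, and the Setdb1_cKO level went from 85.8 CPM in the lowest bin to 29.4 CPM in the highest.

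Beside Sox9 a panel of 5 glial genes (Slc1a3, Aldoc, Plpp3, Gja1 and Ndrg2) was summed, and it went the other way. The panel does not measure glial RNA alone, because fibroblasts carried 1852 and 1932 CPM of it. The part of glial RNA in the Sox9 levels was not tested. Neuroblasts carried 114 and 70.7 CPM of the panel and granule neurons 97.1 and 42.0 CPM, and 4 of its 5 genes were at least 1.5-fold lower in neuroblasts. Per 1000 panel UMIs there were 135 Sox9 UMIs in control and 661 in Setdb1_cKO neuroblasts, 107 and 1062.5 in granule neurons, 119 and 107 in radial glia and 51.7 and 70.2 in microglia. In the cells with 0 panel UMIs, Sox9 stood at 13.8 and 50.7 CPM in neuroblasts (1964 and 2054 cells), a ratio of 3.67 (3.06 to 4.44), and at 6.80 and 45.3 CPM in granule neurons (159 and 458 cells), a ratio of 6.66 (3.17 to 16.8). Sox2, which accompanies Sox9 in glia, was at 14.3 and 15.6 CPM in neuroblasts and at 8.09 and 2.63 CPM in granule neurons. Setdb1_cKO granule neurons had 17.0 Sox9 UMIs per Sox2 UMI, against 1.29 in control granule neurons and 0.987 and 1.03 in radial glia. In neuroblasts without a Sox2 UMI the Sox9 ratio was 3.10, and in granule neurons without one 5.68.

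**Figure D3:**
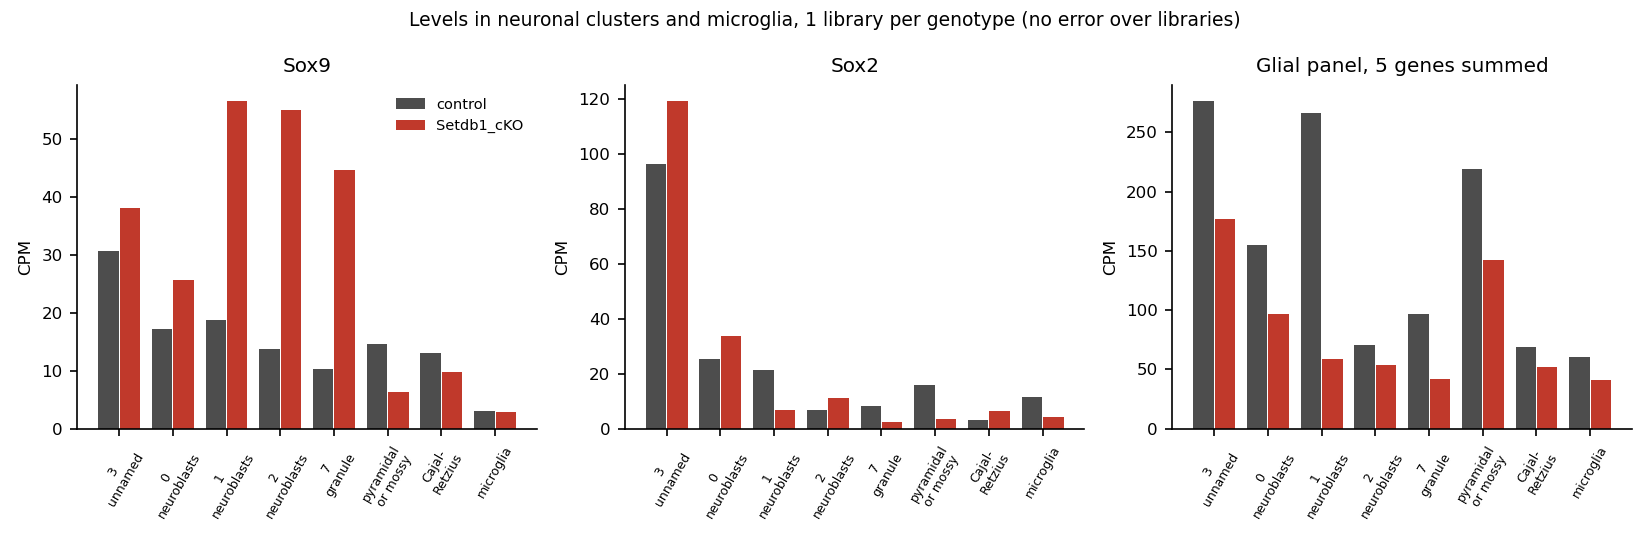
CPM of Sox9, of Sox2 and of the summed glial panel in neuronal clusters and microglia, control in grey and Setdb1_cKO in red, 1 library per genotype and no error bars. Sox9 is higher in the Setdb1_cKO bars of clusters 1, 2 and 7 (56.6, 55.0 and 44.6 CPM), where the panel is lower than in control.

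Single cells showed the same difference. After each cell was thinned to 2000 UMIs, a Sox9 UMI was present in 2.97% of control (95 of 3197, 2.41 to 3.62) and 7.44% of Setdb1_cKO neuroblasts (223 of 2996, 6.53 to 8.44). In granule neurons the shares were 2.05% (5 of 244, 0.669 to 4.72) and 8.41% (54 of 642, 6.38 to 10.8). Thinning left out 34 and 27 neuroblasts and 9 and 13 granule neurons, and the unthinned shares were 7.12% and 17.3% for neuroblasts, 6.32% and 22.4% for granule neurons. Microglia gave 0 of 137 control cells (exact upper bound 2.66%) and 0.649% of Setdb1_cKO cells, and their cells had medians of 6330 and 8364 UMIs, where neuroblasts had 5216 and 6001 and granule neurons 6613 and 9056. The intervals of the control shares overlapped that of the few microglia, and the Setdb1_cKO shares lay above it. On summed UMIs, control neuroblasts (15.4 CPM, 13.6 to 17.3) did lie above control microglia (3.15, 0.649 to 9.19). Control granule neurons (10.4, 6.17 to 16.4) overlapped them. Cells with 3 or more Sox9 UMIs numbered 7 of 3231 control and 81 of 3023 Setdb1_cKO neuroblasts (0.217% and 2.68%), and 0 of 253 and 28 of 655 granule neurons, with up to 13 Sox9 UMIs in a Setdb1_cKO neuroblast and 3 in a control one. Panel-free cells made up 68.6% of the 522 Setdb1_cKO neuroblasts with a Sox9 UMI and 67.8% of the others, against 53.5% and 61.3% in control.

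**Figure D4:**
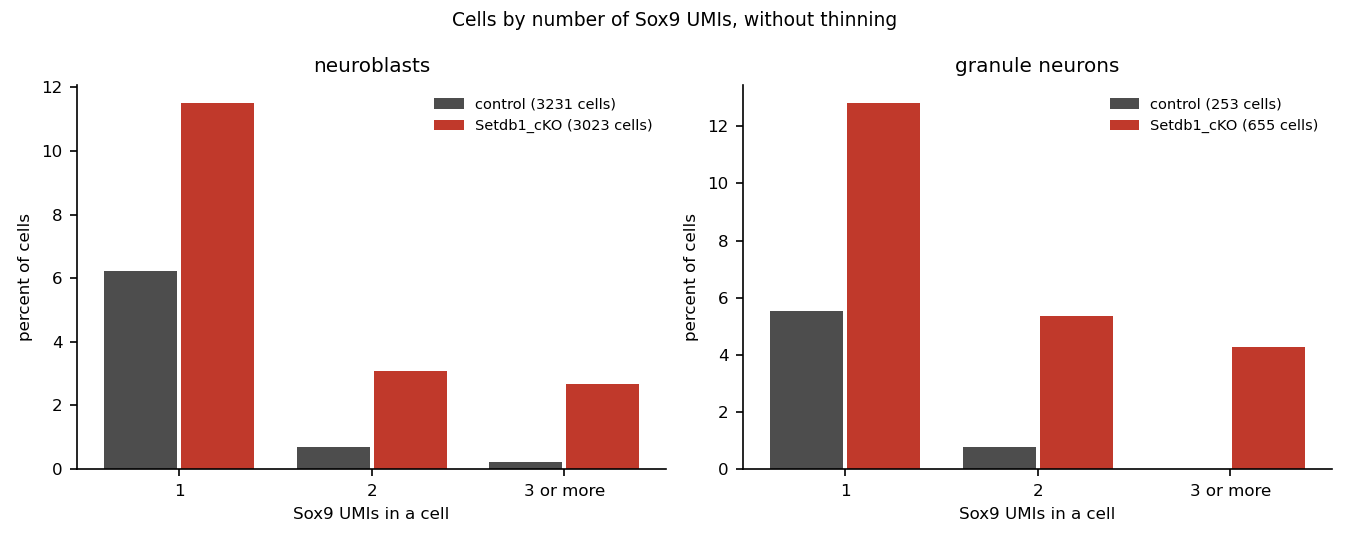
Percent of neuroblasts and granule neurons with 1, 2 or at least 3 Sox9 UMIs, without thinning, control in grey and Setdb1_cKO in red. The share with at least 3 is 0.217% and 2.68% in neuroblasts and 0% and 4.27% in granule neurons.

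The boundary between neuroblasts and granule neurons shifted with the settings, and the granule neuron value depended on it. With looser cell filters that class held 12 and 66 cells and the Sox9 ratio was 0.555 (0.0992 to 5.62), and with stricter filters it held 17 and 98 cells and the ratio was 1.64 (0.408 to 14.3). Over both classes pooled, a choice made after seeing this, the ratio was 3.10 (2.72 to 3.54), and it lay between 2.42 and 3.24 under 7 alternatives for filters and clustering. When cells were instead gated one by one on marker genes, the neuroblast gate took 5000 and 5276 cells and its Sox9 ratio was 1.25 (1.16 to 1.34). That gate also held progenitor and other neuronal clusters: its cells from neuroblast clusters were at 15.4 and 46.7 CPM and those from other clusters at 60.3 and 41.5 CPM.

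Outside this branch Sox9 was lower or similar in the Setdb1_cKO library, apart from fibroblasts. Pyramidal or mossy neurons had 54 and 68 UMIs, 14.7 and 6.37 CPM, a ratio of 0.434 (0.299 to 0.632) in a class where 9.85% of measured genes were at least 1.5-fold lower and 5.96% higher, and their glial panel was also lower, 219 and 143 CPM. In control pyramidal or mossy neurons 48.1% of the 27 cells with a Sox9 UMI also had a Sox2 UMI, against 5.50% of the others. Oligodendrocyte progenitors were at 361 and 257 CPM (0.711, 0.610 to 0.828), Cajal-Retzius cells at 13.2 and 9.78 CPM (0.743, 0.456 to 1.20) and endothelial cells at 71.1 and 68.8 CPM (0.968). Endothelial cells carried 368 and 181 CPM of the glial panel and had 193 and 380 Sox9 UMIs per 1000 panel UMIs. Fibroblasts had 24 and 53 UMIs and a ratio of 1.91 (1.16 to 3.24).

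The genes next to Sox9 did not share its difference in neuroblasts. Of 7 measured genes with a start within 1 Mb, 0 were at least 1.5-fold higher and 1 was lower, the somatostatin receptor gene Sstr2 at 114 and 43.0 CPM (0.377, 0.347 to 0.409), which is also a leading gene of cluster 2. In granule neurons 1 of 7 was higher, the noncoding gene 2610035D17Rik about 420 kb downstream at 11.6 and 25.4 CPM (2.20, 1.38 to 3.70), whose ratio in neuroblasts was 0.839, and 2 were lower, Sstr2 (0.462) and D11Wsu47e (0.662, 0.352 to 1.31). Among all measured genes 7.09% were higher and 6.26% lower in neuroblasts, and 7.27% and 6.91% in granule neurons. With 7 neighbours, these counts cannot be told apart from those shares. These neighbours were picked out after their values were seen.

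In the main glial and progenitor classes Sox2 stayed within 1.5-fold. It was at 713 and 656 CPM in radial glia (0.921, 0.888 to 0.954), 641 and 684 in astrocytes (1.07, 1.03 to 1.11) and 463 and 379 in intermediate progenitors (0.820, 0.780 to 0.861). Ependymal cells (27 and 106 cells) were lower, at 564 and 402 CPM (0.714, 0.577 to 0.889). In neuroblasts it had 248 and 293 UMIs (1.09, 0.918 to 1.30). In granule neurons it had 14 and 16 UMIs, a ratio of 0.324 (0.148 to 0.718), and in pyramidal or mossy neurons 59 and 37 UMIs, 0.216 (0.139 to 0.332), with levels at or near the 11.5 and 4.34 CPM of microglia. With genes scaled over both libraries before clustering, which moved cells between classes, the neuroblast ratio of Sox2 became 3.22, and with doublets kept 1.71.

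Sox8 was higher in intermediate progenitors of the Setdb1_cKO library, at 28.6 and 55.0 CPM (273 and 365 UMIs), a ratio of 1.92 (1.64 to 2.25). Both of its clusters showed this, cluster 6 of cells in DNA synthesis at 31.7 and 52.6 CPM (1.66, 1.35 to 2.05) and cluster 9 with Neurog2 at 24.7 and 58.2 CPM (2.35, 1.83 to 3.04). In cluster 3 Sox8 was at 3.27 and 13 CPM (19 and 63 UMIs), 3.98 (2.35 to 7.04), and in neuroblasts at 1.16 and 2.24 CPM (20 and 42 UMIs), 1.94 (1.11 to 3.49), too low to be read as more than a trace. Radial glia were at 57.7 and 73.5 CPM (1.27, 1.13 to 1.43), with 1.48 in cluster 4, 0.965 in cluster 8 and 1.56 (1.19 to 2.06) in the dividing cluster 17, whereas astrocytes were at 68.1 and 54.9 CPM (0.806, 0.702 to 0.924). Granule neurons had 1 and 6 UMIs and were not measured. After thinning, 7.07% of control and 10.2% of Setdb1_cKO intermediate progenitors had a Sox8 UMI (5.66 to 8.72 and 8.09 to 12.7), and microglia had 0 of 137 and 0 of 154. Over all alternatives the ratio in intermediate progenitors lay between 1.74 and 2.21. Its relative Sox9 was at 0.925 in the same cells, and the difference between the genes was not tested.

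Sox4 was lower in neuroblasts and granule neurons of the Setdb1_cKO library. Neuroblasts had 2629 and 1719 CPM, a ratio of 0.654 (0.645 to 0.663) that no longer passed 1.5-fold under 5 alternatives (0.672 to 0.879), and granule neurons 918 and 419 CPM, 0.457 (0.429 to 0.487). Within single clusters the ratio lay nearer to 1 or at the same value: within cluster 0 the levels were 3406 and 2785 CPM (0.818), within cluster 2 they were 2235 and 1754 CPM (0.785) and within cluster 1 they were 1853 and 1194 CPM (0.644), and Setdb1_cKO neuroblasts were mostly in cluster 1, where Sox4 was lowest. The control level in granule neurons was above its level in radial glia (536 CPM), and the Setdb1_cKO level was near that of radial glia of that library (396 CPM). After thinning, 72.5% of control and 50.6% of Setdb1_cKO granule neurons had a Sox4 UMI, against 43.1% and 37.0% of microglia. With genes scaled over both libraries the granule neuron class held 37 and 975 cells and the ratio turned to 1.49. Over both classes pooled the Sox4 ratio was 0.566 (0.558 to 0.574), and it stayed between 0.544 and 0.771 under 8 alternatives.

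Sox11, the partner of Sox4, was lower by less. It was at 5026 and 4111 CPM in neuroblasts (0.818, 0.810 to 0.826), with 0.845, 0.877 and 0.906 in clusters 0, 1 and 2, and at 4139 and 2842 CPM in granule neurons (0.687, 0.668 to 0.706), and neither passed 1.5-fold. In granule neurons the ratio became 0.594, past 1.5-fold, with stricter filters, 1.03 with looser filters and 1.39 with genes scaled over both libraries. In radial glia Sox4 was at 536 and 396 CPM (0.739) and Sox11 at 340 and 242 CPM (0.711), and the clusters differed. Cluster 8, with most Setdb1_cKO cells, had ratios of 0.728 (0.611 to 0.874) for Sox4 and 0.916 for Sox11, cluster 4 had 1.12 and 0.959 and the dividing cluster 17 had 1.06 and 1.14. Sox11 in radial glia passed 1.5-fold under 5 alternatives, at 0.492 with each library clustered alone, 0.605 at resolution 0.6, 0.616 with genes scaled over both libraries, 0.642 with doublets kept and 0.652 with stricter filters, and Sox4 did so with each library clustered alone (0.642). Microglia, whose values are used for comparison above, had 276 and 239 CPM of Sox4 and 157 and 46.3 CPM of Sox11. Sox11 was thus lower in microglia too, at a ratio of 0.294 (0.216 to 0.397) on 150 and 64 UMIs. The part of free RNA in the radial glia difference was not tested. In intermediate progenitors the ratios were 0.867 for Sox4 and 0.945 for Sox11. Cluster 15, an unnamed cluster led by Olig2, Olig1 and Egfr (327 and 164 cells), went the other way, with Sox4 at 528 and 699 CPM (1.32, 1.23 to 1.42) and Sox11 at 469 and 602 CPM (1.29, 1.19 to 1.39).

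The 3 NFI genes were slightly lower in the Setdb1_cKO library in the main classes, and none passed 1.5-fold there. Their 15 ratios in the main classes lay between 0.763 and 0.990, and the interval lay below 1 in 14 of them. Over all 15 named classes the interval lay below 1 in 31 of 45 pairs and above 1 in 3, with ratios from 0.457 (Nfia in microglia) to 1.39. Where UMIs are many, such as 149212 for Nfib in neuroblasts, intervals exclude 1 at small differences. The share of all genes with such intervals was not counted, so these counts are not read as particular to the NFI genes. The direction in neurons turned in some settings. With genes scaled over both libraries the ratios of Nfia, Nfib and Nfix became 1.03, 1.03 and 1.01 in neuroblasts and 1.06, 1.28 and 1.03 in granule neurons, and Nfib in neuroblasts was at 1.02 with doublets kept. In granule neurons Nfia and Nfib were at 1.04 with looser filters, and with marker gates, on 2 and 2 cells, Nfib was at 1.04 and Nfix at 0.641. Over both neuronal classes pooled all 3 stayed below 1 under 8 alternatives. Nfia was at 1416 and 1261 CPM in neuroblasts (0.891, 0.875 to 0.907) and 1347 and 1027 CPM in granule neurons (0.763, 0.727 to 0.80). Nfib was at 4403 and 3892 CPM in neuroblasts (0.884) and 2901 and 2372 CPM in granule neurons (0.818), and Nfix at 3471 and 2889 (0.832) and at 2401 and 1892 (0.788). In radial glia the ratios of Nfia, Nfib and Nfix were 0.914, 0.824 and 0.848 and in astrocytes 0.941, 0.943 and 0.990. Within neuroblast clusters 0, 1 and 2 Nfia was at 0.961, 0.904 and 0.924 and Nfix at 0.901, 0.857 and 0.938, each with an interval below 1. Nfib was closer to 1 there than in the whole class, at 0.945, 0.973 and 0.986, as it was in radial glia clusters 4 (0.946), 8 (1.02) and 17 (0.933). In astrocytes it was at 0.955 in cluster 5, 0.881 in cluster 12 and 0.728 in the shallow cluster 18, and in intermediate progenitors at 0.855 in cluster 6 and 0.920 in cluster 9. The median gene had a log2 ratio of -0.04 in neuroblasts and -0.06 in granule neurons, against which these ratios are to be read. It was at -0.08 in radial glia, -0.04 in intermediate progenitors and -0.02 in astrocytes. In GABAergic neurons (36 and 75 cells) Nfib and Nfix were higher, at 1.20 (1.05 to 1.37) and 1.39 (1.17 to 1.66), and in cluster 15 all 3 were, at 1.13 to 1.17.

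Relatives outside the members were compared from a fixed list of 14 other Sox genes and Nfic. In neuroblasts 0 of 6 measured Sox genes passed 1.5-fold, with a median log2 ratio of 0.16 against -0.04 for all genes, and Sox12, related to Sox4 and Sox11, was at 62.9 and 56.8 CPM (0.903). In granule neurons Sox12 was the 1 gene measured (1.04). In radial glia 1 of 8 was higher, Sox7 at 3.75 and 10.4 CPM, and 1 was lower, Sox1, a relative of Sox2, at 88.6 and 53.9 CPM (0.609, 0.542 to 0.683). In astrocytes Sox6, which acts in glial and oligodendrocyte lineages, was at 72.3 and 118 CPM (1.63, 1.47 to 1.82) and Sox7 at 2.23, with 0 of 8 lower. In intermediate progenitors Sox21 was at 17.5 and 30.1 CPM (1.72). Beside these counts, 7.09% of all measured genes were higher and 6.26% lower in neuroblasts, and 6.34% and 6.79% in radial glia. The shares were 5.97% and 5.54% in astrocytes and 4.62% and 7.13% in intermediate progenitors. Lists this short give counts too small to be told apart from such shares. Nfic did not pass 1.5-fold in any main class and was at 62.5 and 55.5 CPM in neuroblasts (0.887).

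Genes described as under the control of Sox9 and Nfia did not accompany Sox9 in neuroblasts and granule neurons. Of the 12 listed, 11 were measured in neuroblasts, 0 of them higher and 5 lower (median log2 ratio -0.30, all genes -0.04). Granule neurons had 7 measured, 0 higher and 3 lower. Over all measured genes 6.26% were lower in neuroblasts and 6.91% in granule neurons. The drop was not particular to these classes. Pyramidal or mossy neurons, where Sox9 was lower, had 9 measured, 0 higher and 6 lower, with 9.85% of all genes lower. Endothelial cells, where Sox9 was similar, had 11 measured, 0 higher and 6 lower, whereas fibroblasts had 8 measured, 3 higher and 0 lower. Fabp7, a fatty acid binding protein of radial glia, was at 184 and 99.95 CPM in neuroblasts (0.543, 0.513 to 0.575) and the glutamate transporter gene Slc1a3 at 32.0 and 18.3 CPM (0.573). Aldoc was at 0.598 and Aqp4 at 0.628 in neuroblasts, and Slc1a3 reached 0.173 (0.107 to 0.275) in granule neurons. The glial panel, which shares Slc1a3, Aldoc and Gja1 with this list, was lower as well: the summed ratios of the list and the panel were 0.686 and 0.620 in neuroblasts and 0.616 and 0.433 in granule neurons, and the part of glial RNA in these cells was not tested. Apcdd1 and Mmd2, which are known as joint targets of both factors, were at 1.07 and 0.814 in neuroblasts. In radial glia, where Sox9 and Nfia hardly differed, 4 of 12 were at least 1.5-fold higher and 0 lower: Gfap at 424 and 1107 CPM (2.61, 2.51 to 2.72), the water channel gene Aqp4 at 175 and 419 CPM (2.39), Aldh1l1 at 46.2 and 82.5 CPM (1.79) and S100b at 2.81 and 16.1 CPM (5.74). These 4 are also astrocyte markers used to name clusters, and cluster 8, which held most Setdb1_cKO radial glia, had 42 control cells. In astrocytes 1 of 12 was higher, S100b (1.87), and in intermediate progenitors 2 of 11, Hes5 at 449 and 687 CPM (1.53) and Aldh1l1 (2.02). The shares of all measured genes that were higher were 6.34% in radial glia, 5.97% in astrocytes and 4.62% in intermediate progenitors.

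Other transcription factors of glia and neural stem cells were lower in neuroblasts and granule neurons where they passed 1.5-fold. Neuroblasts had 20 measured, 0 higher and 9 lower, and granule neurons 14 measured, 0 higher and 7 lower, where 6.26% and 6.91% of all measured genes were lower. The median log2 ratios of the list in these classes were -0.45 and -0.59. The drop was not particular to them. Pyramidal or mossy neurons, where Sox9 was lower, had 14 measured, 1 higher and 11 lower, with a median of -1.18, and 9.85% of all genes lower. Emx2, a patterning factor of the hippocampus, was at 111 and 61.6 CPM in neuroblasts (0.556, 0.516 to 0.598), Emx1 at 105 and 65.5 CPM (0.623) and Rest, a repressor of neuronal genes, at 9.88 and 4.75 CPM (0.481). In granule neurons Id2 was at 351 and 190 CPM (0.541) and Pax6 at 11.6 and 2.95 CPM (0.255, 0.127 to 0.509). In radial glia 2 of 21 were higher, Id3 (1.5) and Tcf7l2 (1.5), and 2 lower, Emx2 (0.628) and Olig1 (0.540).

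Neuronal genes described as under the control of Sox4 and Sox11 mostly stayed within 1.5-fold. In neuroblasts 0 of 11 were higher and 2 lower, Tead2 at 16.2 and 3.89 CPM (0.240, 0.183 to 0.311) and Neurog2 at 8.55 and 5.6 CPM (0.655), and the median log2 ratio was -0.18. Tubb3, a tubulin of young neurons, was at 1237 and 1020.5 CPM (0.825), Dcx at 892 and 822 CPM (0.922) and Stmn2 at 1365 and 1451 CPM (1.06). In granule neurons 1 of 10 was lower, Neurog2 (0.284). Shares of all measured genes that were lower were 6.26% in neuroblasts and 6.91% in granule neurons, and counts this small cannot be told apart from them. In intermediate progenitors Tubb3 was higher, at 134 and 271 CPM (2.02, 1.88 to 2.17), and in radial glia at 39.4 and 60.1 CPM (1.53), where Prox1, the granule cell fate factor, was lower at 183 and 110 CPM (0.601).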

How the data were processed

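What the authors deposited is, for each library, a matrix of raw UMI counts (integers, gene by barcode). The submitters' processing notes name Cell Ranger 7.1.0, Seurat and the mm10 build. Tissue was dissociated and profiled with 10x 3' chemistry, per the labels' protocols. Cells with at least 1000 UMIs, 500 genes and at most 10% mitochondrial UMIs were kept, and 616 and 578 barcodes called as doublets by Scrublet (scanpy 1.11.5) were removed, 5.14% and 5.64% of barcodes scored. The libraries shared 68 barcodes. Kept cells were clustered together on 2000 variable genes without Sox and NFI genes, scaled within each library, with 30 principal components, 20 neighbours and Leiden resolution 1 (leidenalg 0.10.2). Scaling within libraries was chosen after a first clustering had split neuronal cells by library. Clusters were named from markers of 18 types, none of them a member.

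UMIs were summed per class and library (neuroblasts 17314047 and 18748558, granule neurons 1729879 and 6094484) and divided by the class total. Ratios have exact conditional Poisson intervals and shares Clopper-Pearson intervals, and calls use log2 ratios with 0.5 UMI added. Named genes are the 8 members in every class, at most 6 genes per list and class that were at least 1.5-fold apart with an interval excluding 1, taken by level, and the 3 genes most like each member. Values of other list genes are given where the text describes what a list did. The members and lists were chosen with earlier results of these data known. Counts were also simulated from the pooled profile of each class, with Poisson error alone and no variation between mice, libraries or clusters. A simulated call needed 1.5-fold and an interval excluding 1, which the counts of genes past 1.5-fold did not. Of neuroblast genes changed 2-fold, 94% of those changed upward and 86% of those changed downward were called, and 92% and 80% in granule neurons. Of unchanged genes 0.764% were called in neuroblasts and 1.93% in granule neurons. Erythroid and other blood clusters, which carried neuronal RNA, are not described, but they are among the 17 classes used for the correlations. A gene first chosen for the glial panel is not reported here.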

Additional observations from a re-analysis of the deposited data

Results flagged for a closer look

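Sox9 differed in opposite directions in named classes, each at least 1.5-fold apart with an interval that excluded 1. In neuroblasts it was higher in the Setdb1_cKO library (3.04) and in pyramidal or mossy neurons lower (0.434), so the ratios stood 7.01-fold apart. Granule neurons (4.29) and pyramidal or mossy neurons stood 9.88-fold apart, and fibroblasts (1.91) and pyramidal or mossy neurons 4.41-fold apart. With 1 library per genotype the differences between classes were not tested. The pyramidal or mossy values rest on 54 and 68 Sox9 UMIs, near the level of other cells that should lack the gene.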

How the results depend on the processing

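The neuroblast ratio of Sox9 stayed above 1 under all 16 alternatives, which are not independent checks. A lower UMI minimum for measured genes cannot change a ratio, and a larger pseudocount hardly can at these counts. The single clusters and the panel-free and Sox2-free cells are parts of the class. The ratio was 2.24 with doublets kept, 2.42 at resolution 0.6, 3.67 in cells without panel UMIs, 1.49 in cluster 0 alone, 3.99 in cluster 2 alone and 1.25 with marker gates. The single-cluster, panel-free (with 1 panel gene fewer than planned), Sox2-free and pooled values and the joint scaling of genes were chosen after seeing the data. The granule neuron ratio was 0.555 with looser filters, 1.64 with stricter filters, 9.08 with genes scaled over both libraries (37 and 975 cells) and 0 with marker gates (2 and 2 cells). At resolution 0.6 and with each library clustered alone, a library had no cells of that class, so there is no value. Of the pairs of member and class, 2 were higher with marker gates, and 1 was lower at resolution 0.6 and with genes scaled over both libraries. The Sox4 ratio in granule neurons turned to 1.49 with genes scaled over both libraries, and Sox8 in neuroblasts became 4.39. In neuroblasts Sox4 no longer passed 1.5-fold with doublets kept (0.847), at resolution 0.6 (0.771), with each library clustered alone (0.689), with median-of-ratios scaling (0.672) or with genes scaled over both libraries (0.879), and in granule neurons with stricter filters (0.774) or doublets kept (0.694). In all these cases the cause was not tested. At 18 control UMIs, depth limits the granule neuron value of Sox9. No paired analysis was possible because each genotype had 1 library.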
